A study of Mus musculus with 3 samples.

Results

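Barcodes with few captured RNA molecules and a large mitochondrial share were examined in single-cell RNA-seq libraries of tumor-infiltrating CD8+ T cells. Members were chosen by 2 measured values alone, a total from 500 to below 2000 unique molecular identifiers (UMIs, the count of distinct RNA molecules read from a barcode) and 5% to 20% of those UMIs from the 13 genes of the mitochondrial genome. The rule selected 1040 of 31026 barcodes over 3 libraries. Both values, and whatever follows from them, are therefore given only as descriptions of the members. Each library was compared within itself with 2 other classes. The low-mitochondrial barcodes had the same range of UMIs and under 5% mitochondrial UMIs (1365 in all), and the deep cells had 5000 UMIs or more (26923 in all).

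C57BL/6 mice bearing B16F10 tumors, a mouse melanoma line, were irradiated and given pmel CD8+ T cells, which carry a transgenic receptor for the melanoma antigen gp100 and the congenic marker Thy1.1. The transferred cells had been cultured with sIL-2, with IL-2/21-Trikine, an engineered protein that engages receptor chains of both cytokines, or with sIL-2 + IL-21. The mice were then dosed with a cytokine. By the study's methods mice that received cells cultured in IL-2 or in IL-2 + IL-21 were given IL-2 alone, and mice that received Trikine-cultured cells were given Trikine. The sIL-2 and sIL-2 + IL-21 groups thus differed in culture only, and the IL-2/21-Trikine group differed in culture and in the cytokine dosed. Tumors were dissociated on day 18 after tumor injection, and live single Thy1.1+CD8+ cells were sorted, so all 3 groups share the tumor line, the transgenic receptor, the sort and the day. Each treatment was 1 library, the number of mice behind a library was not given in the sources used here, and no comparison of treatments has a replicate. The libraries held 7805, 13350 and 9871 barcodes with 132104871, 167782625 and 168627825 UMIs. Here and in every triplet of values below, sIL-2 comes first, IL-2/21-Trikine second and sIL-2 + IL-21 last.

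Mitochondrial transcripts are made and kept inside the organelle, and Malat1, Neat1 and Xist are long noncoding RNAs held in the nucleus. Most messenger RNA of an intact T cell lies in the cytosol, where the messages for ribosomal proteins are among the most abundant. A raised mitochondrial share in a droplet is commonly used as a sign of a damaged cell that has lost cytosolic RNA, and droplets can also hold free RNA or single nuclei. Here the RNA classes were measured one by one, and the state of the cells behind the barcodes was not tested.

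The members numbered 127, 643 and 270. They made up 1.63% [1.36, 1.93], 4.82% [4.46, 5.19] and 2.74% [2.42, 3.08] of the barcodes of each library (exact binomial 95% intervals, which cover counting error only, as do all intervals here). Of the barcodes under 2000 UMIs they were 42.6%, 35.4% and 62.5%, and they held 0.112%, 0.412% and 0.155% of the UMIs of their libraries. The IL-2/21-Trikine library thus had the largest share of members among all barcodes and the smallest among barcodes under 2000 UMIs, and with 1 library per treatment a treatment and a library cannot be told apart. Of the deep cells only 15, 13 and 35 fell in the same mitochondrial range, or 0.206%, 0.121% and 0.393%. The share of barcodes with 5% to 20% mitochondrial UMIs was 37.2%, 28.6% and 61.2% at 500 to 1000 UMIs, 46.7%, 46.3% and 64.8% at 1000 to 2000 UMIs, and 51.7%, 38.7% and 37.6% at 2000 to 3000 UMIs. It was 14.8%, 4.17% and 9.93% at 3000 to 5000 UMIs, and 0.421%, 0.230% and 1.39% at 5000 to 10000 UMIs. Barcodes just above the upper UMI limit of the rule thus held the same range often, and from 3000 UMIs on the share was smaller in all 3 libraries. Barcode sequences shared between libraries numbered 31, 18 and 43 for the 3 pairs, and no barcode was a member in both libraries of a pair.

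**Figure D1:**
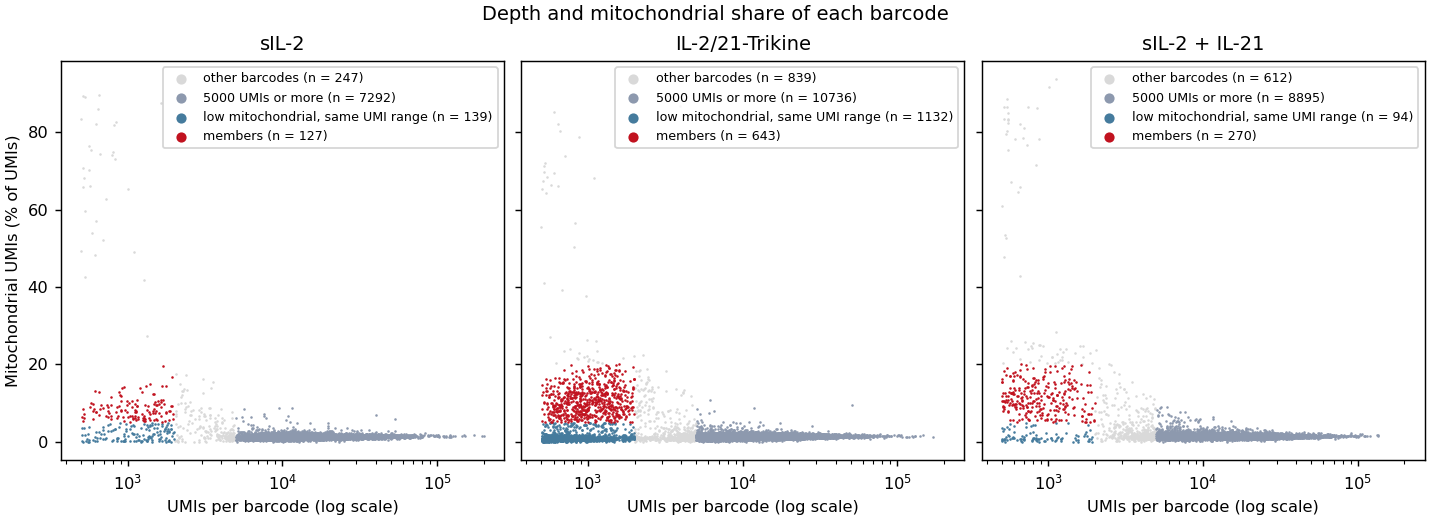
Each point is a barcode, with its UMIs on a log axis and its mitochondrial UMIs in percent of all UMIs on the vertical axis, for the 3 libraries. The 127, 643 and 270 members (red) sit at the upper left, the low-mitochondrial barcodes (blue) below them and the deep cells (grey) to the right, nearly all under 5%.

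The median member held 1131, 997 and 854.5 UMIs, of which 8.01%, 10.3% and 11.3% were mitochondrial, and 774, 705 and 610 detected genes. Set beside deep cells, the members had fewer molecules of each of 7 RNA classes measured, and the size of the gap depended on the class. A deep cell held on average 2.37, 1.77 and 2.38 times as many mitochondrial UMIs as a member (means of 101, 117 and 110 UMIs per member), and 2.72, 2.89 and 2.57 times as many UMIs of Malat1. For the 25 listed chromatin regulators, large genes for histone and nucleosome enzymes, the ratio was 6.71, 5.79 and 7.30, and for all non-mitochondrial RNA 16.6, 15.6 and 21.5. It reached 63.3, 54.0 and 83.3 for the nuclear-encoded subunits of the respiratory chain, and 102, 75.3 and 103 for the ribosomal proteins, of which a member held on average 40.9, 54.1 and 44.9 UMIs. Respiratory chain proteins are encoded partly in the mitochondrion and partly in the nucleus, and these parts stood near opposite ends of the order in each library. The limits of the rule bound the mitochondrial and total UMIs of a member, so those 2 ratios are descriptions only. Fewer UMIs in the other classes also follow in large part from the limit on the total. That members held fewer of each class is therefore no result of its own, and only the order of the classes is described.

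**Figure D2:**
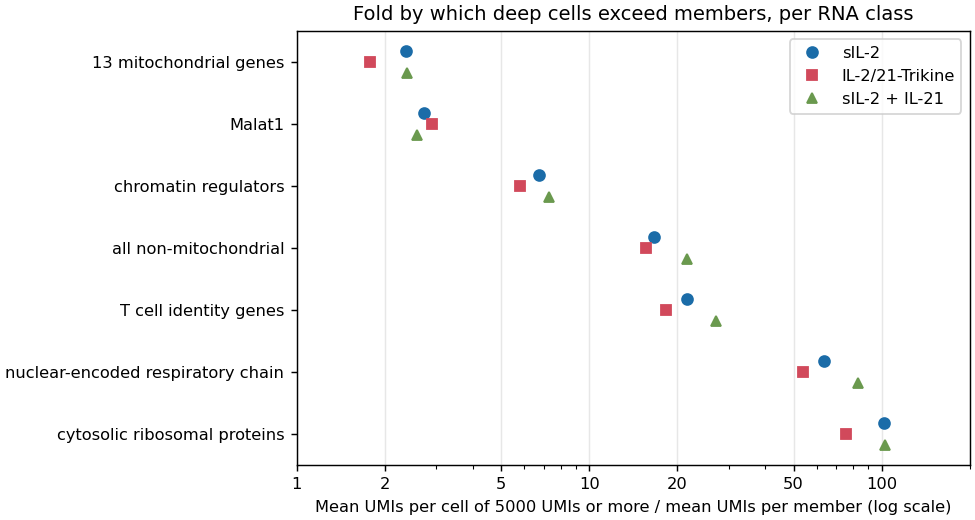
Mean UMIs per deep cell divided by mean UMIs per member, on a log axis, for 7 classes of RNA and for each library (one symbol each). Mitochondrial genes and Malat1 lie under 3 in all 3 libraries, all non-mitochondrial RNA between 15.6 and 21.5, and ribosomal proteins between 75.3 and 103.

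The label of these barcodes was checked against its 3 markers, Malat1, Neat1 and mt-Nd4. Levels are given as CPM, the summed UMIs of a gene scaled to 1000000 non-mitochondrial UMIs of the class, because the rule fixes the mitochondrial part. Malat1 stood at 25820, 18257 and 19622 CPM in the members, against 4223, 3379 and 2340 in deep cells, so its level was higher by 2.61, 2.43 and 3.07 on the log2 scale. Against low-mitochondrial barcodes (29951, 6060 and 10119 CPM), the Malat1 difference was -0.21 [-0.28, -0.15] in the sIL-2 library, 1.59 [1.55, 1.64] in the IL-2/21-Trikine library and 0.96 [0.85, 1.06] in the sIL-2 + IL-21 library. Malat1 thus marked the members off from deep cells in every library, but from the other shallow barcodes in 2 of 3. Neat1, the scaffold of paraspeckles, rested on 21, 46 and 29 UMIs in all members (155, 74.7 and 126 CPM). Low-mitochondrial barcodes had 215, 37.3 and 166 CPM of Neat1, and deep cells 25.8, 16.9 and 22.5. Neat1 did not reach 100 CPM in every library and was too sparse to mark single barcodes.

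The third marker, mt-Nd4, encodes a subunit of complex I, the first complex of the respiratory chain. Since the rule chose barcodes by the sum of the 13 mitochondrial genes, mt-Nd4 was read within that sum, where it took 8.69% [8.21, 9.19], 10.1% [9.93, 10.4] and 10.1% [9.75, 10.4] of mitochondrial UMIs in the members and 7.21%, 8.51% and 8.17% in deep cells. A member held on average 8.81, 11.9 and 11.1 UMIs of mt-Nd4, and a deep cell 17.3, 17.7 and 21.3. The share of mitochondrial UMIs was larger than in deep cells in all 3 libraries for 5 genes (mt-Nd4, mt-Nd4l, mt-Nd1, mt-Cytb and mt-Co2), smaller for 6 (mt-Nd2, mt-Nd3, mt-Nd5, mt-Co1, mt-Co3 and mt-Atp6), and mixed for mt-Nd6 and mt-Atp8. Shifts in both directions were thus seen within complex I, and mt-Nd5 and mt-Nd3 had wider gaps than mt-Nd4. The share of mt-Nd5 was lower by 0.68, 0.43 and 0.44 on the log2 scale, with 2.11%, 2.45% and 2.57% in the members and 3.38%, 3.30% and 3.48% in deep cells. For mt-Nd3 the log2 difference was -0.63, -0.32 and -0.51. The most abundant of these transcripts, mt-Co1, which encodes the catalytic subunit of cytochrome c oxidase, took 23.3%, 20.4% and 21.1% in the members and 24.7%, 22.1% and 22.8% in deep cells.

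T cell identity was measured after thinning every barcode to 400 non-mitochondrial UMIs, so that depth was equal between classes; no member was left out. The list of T cell identity without Ptprc, which all leukocytes express and which was left out after its values were seen, had at least 1 UMI in 96.1%, 97.8% and 92.2% of members, 85.6%, 97.8% and 92.6% of low-mitochondrial barcodes and 99.6%, 99.6% and 99.5% of deep cells. Trbc2, a constant segment of the T cell receptor beta chain, was found in 79.5%, 88.3% and 81.5% of members, in 54.0%, 89.6% and 68.1% of low-mitochondrial barcodes and in 97.0%, 97.1% and 95.9% of deep cells. Without thinning Trbc2 was found in 96.9%, 97.4% and 94.1% of members, and in 60% [36.1, 80.9] of 20 barcodes rich in myeloid markers and poor in CD3 and CD8 UMIs (median 3324 UMIs). Thinned to 400 UMIs, those 20 barcodes held Trbc2 in 10% [1.23, 31.7] and the list without Ptprc also in 10% (90% without thinning). They were taken as a background for free RNA with limits chosen after their values were seen, and because they were picked for few CD3 and CD8 UMIs, part of their low T cell share is fixed by the choice. They were also pooled over libraries and were deeper than members, so the same amount of free RNA would be a smaller part of their UMIs. Their thinned shares therefore cannot give the share that free RNA would bring to a member, which was not tested. Ptprc, the leukocyte antigen CD45, was found in 80.3%, 78.8% and 73.3% of thinned members and in 46.2%, 38.6% and 35.1% of thinned deep cells. Actb, encoding cytosolic actin, had the opposite order, in 35.4%, 44.9% and 49.3% of members and 82.8%, 85.6% and 88.3% of deep cells. At this depth a member held a median of 338, 346 and 346 detected genes a low-mitochondrial barcode 333, 316 and 324.5, and a deep cell 302, 293 and 296. Both shallow classes thus spread the same number of UMIs over more genes than deep cells did.

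Markers of the other cell types that a tumor or a sort could hold were summed as 7 lists. The 10 melanoma genes summed to 133, 32.5 and 30.3 CPM, with 319, 100 and 377 in low-mitochondrial barcodes and 13.6, 15.3 and 7.74 in deep cells. The melanoma genes were led by Dct, Mlana or Gpnmb, and 4, 4 and 7 of 10 were at 0, Sox10 and Mitf among them. The 16 myeloid genes summed to 73.8, 22.7 and 39.0 CPM in members, to 1074, 519 and 133 in low-mitochondrial barcodes and to 229, 91.2 and 222 in deep cells. Of the myeloid genes 12, 9 and 13 of 16 were at 0 in members, including Lyz2, Cd14, Adgre1 and C1qa. Myeloid RNA was thus lower in members than in either other class, and melanoma RNA lay between them. The 5 platelet genes were all at 0, the erythroid genes summed to 7.38, 4.87 and 0 CPM and the B cell genes, led by Ighm, to 29.5, 12.99 and 8.66. The NK cell genes summed to 44.3, 73.1 and 43.3 CPM, led by Klre1 and with Ncr1 at 0. The list for stroma and endothelium summed to 185, 193 and 143 CPM, to 117, 70.7 and 444 in low-mitochondrial barcodes and to 43.3, 39.8 and 32.4 in deep cells. In members it rested on Pecam1 (162, 188 and 139 CPM), a surface protein of endothelium that lymphocytes also make, with Col3a1, Dcn, Lum, Cdh5, Kdr and Acta2 at 0 in each library. As a check, barcodes with 2 or more UMIs from the melanoma, erythroid and myeloid genes were left out. The B cell, NK cell, platelet, and stroma and endothelium lists were not used for this exclusion. Leaving those barcodes out gave 41 genes higher and 77 lower against low-mitochondrial barcodes, where 61 and 104 are reported below. Against deep cells it gave 1133 higher and 506 lower, where 1158 and 521 are reported. The part of RNA from other cells in the results below was otherwise not tested.

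Composition against deep cells was described gene by gene, over 2442 genes at 100 CPM or more in either class in each library. A gene could pass this floor through 1 class alone, so the floor favors genes that are high in 1 class and low in the other. Part of the counts below is therefore set by the floor. With no floor beyond 1 UMI in both classes, 35.7% of genes were higher and 8.61% lower. A gene was counted as past the fold when its log2 ratio was at least 1 in size and of the same sign in all 3 libraries. By that count 1158 genes (47.4%) were higher in members and 521 (21.3%) were lower, and the median log2 ratio of all genes tested was 1.02, 1.11 and 1.21. Of the 2442 genes 1593, 1618 and 1619 had a ratio above 0. When each library was rescaled so that this median became 0, the split turned to 149 higher and 798 lower. Ratios below are therefore to be read against that median, and the counts of a list against 47.4% and 21.3%.

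Among the lists, those of the cytosolic protein-making and energy machinery held mostly lower genes, and they cover only part of the 521. Of 77 ribosomal protein genes tested, 75 were lower and none higher, with medians of -2.69, -2.35 and -2.35. Rpl13, a protein of the large subunit, stood at 967, 1378 and 1251 CPM in members and 6244, 7394 and 6639 in deep cells. Of the 20 translation factors tested 12 were lower, and of 57 nuclear-encoded respiratory chain genes 50 were lower (medians -2.19, -2.01 and -2.21). Uqcr11, a small subunit of complex III, had log2 ratios of -2.94, -2.95 and -2.69, and Atp5e, a subunit of the ATP synthase, -2.73, -2.58 and -2.53. Mitochondrial ribosome genes, which are nuclear-encoded, were lower for 9 of the 12 tested. Among 23 abundant cytosolic messages 19 were lower, including Tmsb4x, which binds actin monomers (-2.98, -2.56 and -2.69), Gapdh of glycolysis (-2.69, -2.45 and -2.70) and B2m, the light chain of MHC class I (-2.26, -1.87 and -2.06). None of these lists had a gene past the fold in the higher direction.

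Effector messages followed the same direction. Of 9 cytotoxic genes tested 6 were lower (Gzma, Gzmb, Gzmc, Gzmf, Nkg7 and Srgn), with list medians of -1.78, -1.60 and -1.59. Gzmb, the granule protease granzyme B, stood at 997, 1120 and 1810 CPM in members and 3515, 2824 and 5431 in deep cells. Of 8 cytokine and chemokine genes 6 were lower. The chemokine Xcl1 had log2 ratios of -3.19, -3.15 and -2.23, and Ccl3 -3.44, -3.71 and -1.06. Fasl, the membrane ligand of the death receptor Fas, was the only one of the 8 past the fold upward, at 369, 240 and 208 CPM against 131, 113 and 93.9 in deep cells, and its ratio is close to the median of all genes. Heat shock genes were lower for 4 of 6 tested, endoplasmic reticulum chaperones for 4 of 12, immediate early genes for 3 of 9 and mitophagy genes for 2 of 5. Proliferation genes were thinly covered, with 1 of 3 S phase genes and 2 of 5 genes of G2 and mitosis lower, and 1 interferon-stimulated gene was tested and was lower. No gene for the expression of mitochondrial DNA reached the level required.

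Several lists of nuclear RNAs and regulators held genes that were higher in members. Of 5 nuclear-retained RNAs 4 were higher, with medians of 1.95, 2.06 and 2.44. Xist, the RNA that coats the inactive X chromosome, stood at 4290, 6555 and 5105 CPM in members and 809, 1069 and 852 in deep cells (log2 2.41, 2.62 and 2.58). After thinning, Xist was found in 73.2%, 85.5% and 77.4% of members and 26.1%, 32.7% and 28.3% of deep cells. Tsix, its antisense partner, had log2 ratios of 4.01, 4.31 and 4.37, but whether the counting used strand was not given in the sources used here, so reads of the pair may not be separable. Of 22 chromatin regulators tested 17 were higher (medians 1.31, 1.54 and 1.64), and under the rescaling 1 was (0.29, 0.43 and 0.43). Kmt2c, a histone H3 lysine methyltransferase, had log2 ratios of 1.81, 2.08 and 2.33. Splicing and speckle genes had medians of 1.07, 1.12 and 1.19 with 9 of 20 higher, which is the level of all genes, and their median changed sign in 1 library under the rescaling (0.05, 0.01 and -0.03).

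Transcription regulators of T cells and stem and memory genes were also higher. Of 8 stem and memory genes tested 7 were past the fold, and Ccr7, the lymph node homing receptor, was not (-0.33, 0.61 and 1.03). Bach2, a repressor that restrains effector differentiation, stood at 2149, 1857 and 1520 CPM against 535, 443 and 266 in deep cells. Bcl2, an inhibitor of apoptosis, stood at 1396, 1484 and 1186 CPM against 299, 292 and 221. The stem and memory list kept positive medians under the rescaling (0.81, 0.80 and 0.90) but with 1 gene past the fold. Of 15 T cell regulators 11 were higher and 1, Id2, was lower (-1.15, -1.10 and -1.02), while under the rescaling 1 was higher and 1 lower. Ikzf2, which encodes the zinc-finger factor Helios, was the widest of the T cell regulators, at 1263, 1632 and 1078 CPM in members and 121, 157 and 111 in deep cells (log2 3.38, 3.37 and 3.28). Stat5b, a mediator of IL-2 signaling, had ratios of 1.40, 2.09 and 2.29, and Stat3, a mediator of IL-21 signaling, 0.66, 1.47 and 1.59. Tox, a nuclear factor of exhausted T cells, was the only one of 7 genes in the inhibitory receptor list that was higher past the fold (2.87, 2.71 and 3.07), and Cd160 was lower. Genes of the BCL2 and caspase list split into Bcl2, Bcl2l1, Bcl2l11, Apaf1 and Xiap above and Bax, Bcl2a1b and Cycs below. The medians of the inhibitory receptor list (0.60, 0.74 and 0.47) and of the BCL2 and caspase list (0.92, 0.73 and 0.81) turned negative under the rescaling, to -0.42, -0.37 and -0.75 and to -0.11, -0.38 and -0.40. Of the T cell identity list, the pan-leukocyte gene Ptprc (1.82, 2.00 and 2.09) and Cd247 (1.25, 1.12 and 1.12), the zeta chain of the receptor complex, were higher. Cd3d (-1.52, -1.80 and -1.75), Cd3g, Trac and Lat were lower, and the other 9 of the 15 tested were not past the fold. The ratio of Cd247 was close to the median of all genes. Under the rescaling none of the 15 was higher and 10 were lower (medians -1.30, -1.50 and -1.81).

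**Figure D3:**
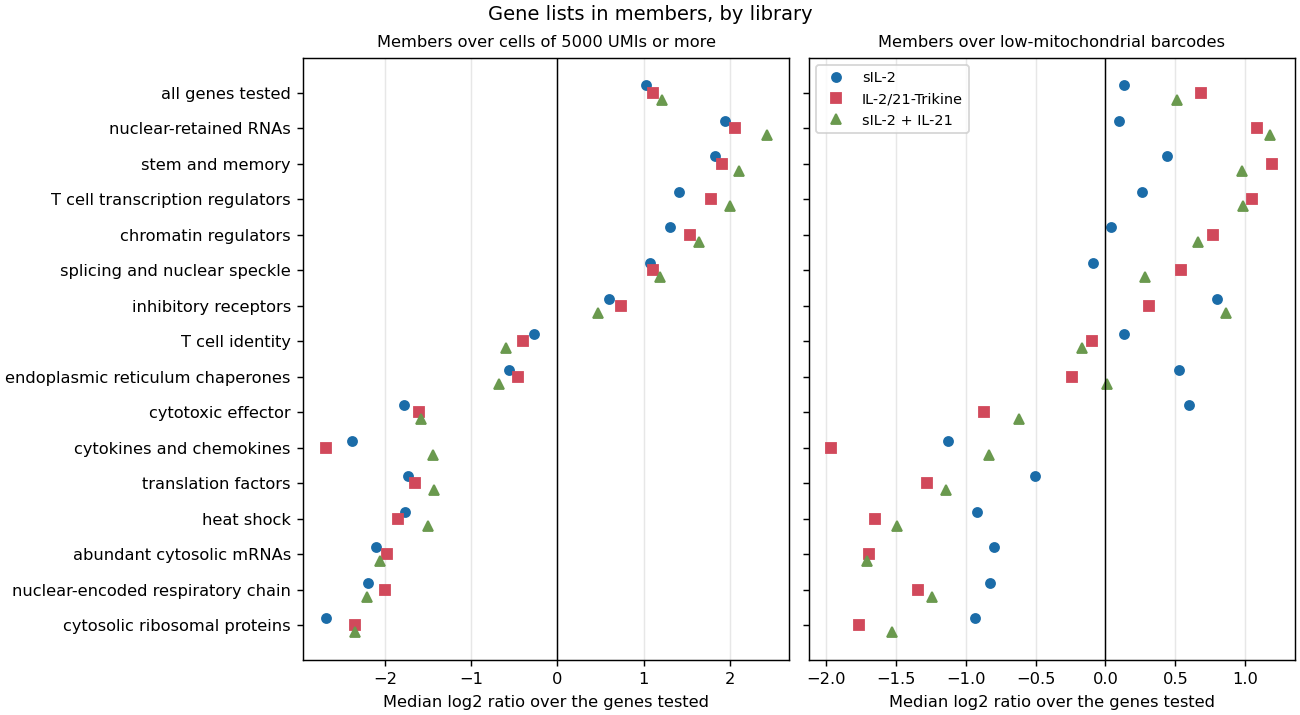
Median log2 ratio of each gene list in members over deep cells (left) and over low-mitochondrial barcodes of the same UMI range (right), one symbol per library, with 0 marked. On the left nuclear-retained RNAs, stem and memory genes and chromatin regulators lie above the medians of all genes (1.02, 1.11 and 1.21) and ribosomal proteins near -2.5. On the right most lists sit closer to 0, and the cytotoxic list lies above 0 in the sIL-2 library (0.60) and below it in the other 2.

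The 10 genes with the widest ratios in each direction were named by one rule. Higher in members than in deep cells were Gm15283, Gm16158, Tsix, St6galnac3, Ikzf2, Taco1, Tox, Gm39323, Gm26510 and Dusp16. Of these only Ikzf2 reached 100 CPM in deep cells, and the others passed the floor through the members alone. St6galnac3, a sialyltransferase, stood at 295, 115 and 208 CPM in members and 16.6, 15.8 and 16.4 in deep cells, and Dusp16, a phosphatase of MAP kinases, at 229, 153 and 385 against 32.9, 27.5 and 45.03. Lower were Ccl3, S100a4, Pomp, Xcl1, Mt1, AA467197, Tomm5, Uqcr11, Gm10076 and Sf3b5. S100a4, a small calcium-binding protein, stood at 140, 198 and 191 CPM in members and 1517, 1195 and 1864 in deep cells. Mt1, a metallothionein that binds zinc, stood at 14.8, 27.6 and 117 against 212, 200 and 1036. Most genes on the lower side encode small proteins, while the higher side held long genes such as Tox and Ikzf2, and gene length was therefore measured.

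Gene length tracked the ratio closely, and intronic reads had been counted. Lengths were matched for 99.8% of genes tested, and the genes were divided into 5 equal groups by genomic span. In the shortest group (median 4.26 kb) the median log2 ratio of members over deep cells was -1.98, -1.85 and -1.98, in the middle group (40.8 kb) 1.07, 1.18 and 1.27, and in the longest group (172 kb) 1.84, 2.02 and 2.18. Genes higher in members had a median span of 90.9 kb, and genes lower in members 5.54 kb. Across genes Spearman's rho between span and ratio was 0.782, 0.807 and 0.792, and 0.765, 0.792 and 0.777 without ribosomal protein genes. For exonic length rho was 0.653, 0.664 and 0.665. These are descriptions across 2438 genes of the same libraries, which are not independent replicates. The low-mitochondrial barcodes against the same deep cells gave a rho of 0.763, 0.744 and 0.681, so the relation was not particular to the members. For members over low-mitochondrial barcodes rho between span and ratio was 0.413, 0.681 and 0.596. Which of the list differences above would remain among genes of equal length was not tested.

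**Figure D4:**
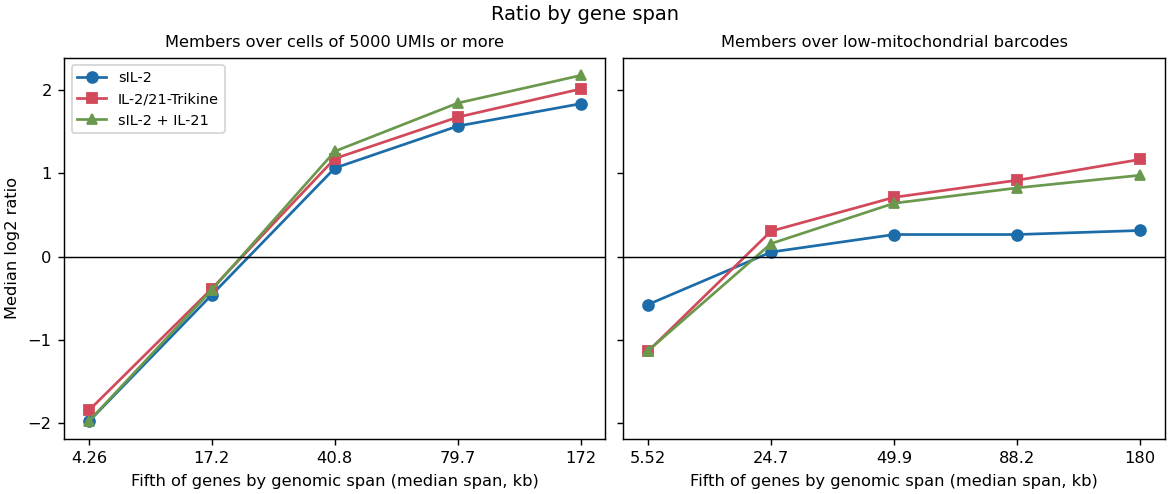
Median log2 ratio for 5 equal groups of genes ordered by genomic span, with the median span of each group in kb on the horizontal axis and one line per library. Against deep cells (left) all 3 lines climb from about -1.9 in the shortest group to about 2 in the longest, and against low-mitochondrial barcodes (right) the sIL-2 line is the flattest.

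Compared with low-mitochondrial barcodes, fewer genes differed than against deep cells. The UMI range was shared but depth within it was not matched, with medians of 1131, 997 and 854.5 UMIs in members and 1184, 792.5 and 828 in low-mitochondrial barcodes. Of 2243 genes tested 61 (2.72%) were higher and 104 (4.64%) were lower by the same fold in all 3 libraries. The sIL-2 library decided these counts, since the other 2 libraries alone gave 425 higher and 333 lower. The medians of all genes were 0.14, 0.69 and 0.51, and rescaling them to 0 left 7 higher and 172 lower. With all UMIs as the denominator the split was 30 higher and 134 lower.

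The low-mitochondrial barcodes were themselves unlike between libraries. The median share of ribosomal protein mRNA was 5.14%, 19.7% and 13.6% in them, against 3.35%, 5.34% and 4.21% in members and 23.2%, 27.3% and 25.1% in deep cells. The median share of Malat1 was 2.67%, 0.212% and 0.426% in them and 2.18%, 1.59% and 1.70% in members. Barcodes in which Malat1 made up 1% or more of non-mitochondrial UMIs were 83.5%, 14.5% and 33.0% of low-mitochondrial barcodes, 86.6%, 73.7% and 78.5% of members and 7.17%, 3.78% and 1.24% of deep cells. The sIL-2 low-mitochondrial barcodes thus lay near members in both measures. Those of the other 2 libraries lay nearer to deep cells in Malat1, and in ribosomal protein mRNA they lay between members and deep cells. The members were more alike across libraries than the low-mitochondrial barcodes were.

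**Figure D5:**
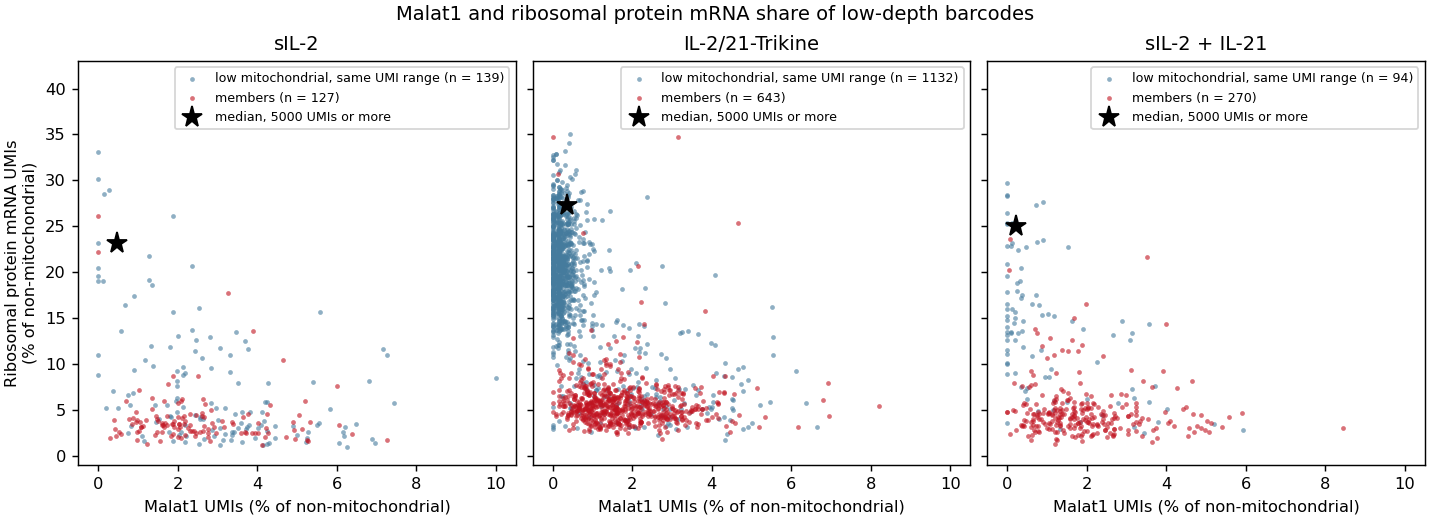
Each point is a barcode from 500 to below 2000 UMIs, with Malat1 UMIs on the horizontal axis and ribosomal protein mRNA UMIs on the vertical axis, both in percent of non-mitochondrial UMIs, and a star marks the median deep cell. Members (red) gather at low ribosomal protein and raised Malat1 in all 3 libraries, and the low-mitochondrial barcodes (blue) overlap them in the sIL-2 library and spread upward in the other 2.

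Against these barcodes 33 of 77 ribosomal protein genes were lower in members in all 3 libraries and none was higher (medians -0.93, -1.76 and -1.53). Rpl13 stood at 2523, 5423 and 4172 CPM in low-mitochondrial barcodes, above the members in each library. Of 22 respiratory chain genes 5 were lower, of 22 abundant cytosolic messages 7, of 7 heat shock genes 2 and of 8 cytokine genes 2 (Ccl3 and Ccl5), where 4.64% of all genes tested were lower. Actb stood at 1063, 1667 and 1996 CPM in members and 1811, 13437 and 8943 in low-mitochondrial barcodes. None of 22 chromatin regulators was past the fold (medians 0.04, 0.77 and 0.66), and the sign in the sIL-2 library turned with all UMIs as the denominator (-0.07) and under the rescaling (-0.09). None of the 8 stem and memory genes was past it either (0.44, 1.20 and 0.97). With 2.72% of all genes higher, a count of 0 in lists of this size is near the background and says nothing particular about them.

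Among the genes higher in members than in low-mitochondrial barcodes, Ikzf2 was the first by the median ratio. Its level was 1263, 1632 and 1078 CPM in members and 276, 289 and 166 in low-mitochondrial barcodes (log2 2.19, 2.50 and 2.70), so the level in members was above both other classes in all 3 libraries. The others of the 10 named were Creb3l2, Bend4, Med12l, Rad51b, Abcb1b, 4933406I18Rik, Mcm9, Xist and Supt3. Abcb1b, a drug efflux transporter, stood at 923, 1020 and 957 CPM in members and 319, 280 and 211 in low-mitochondrial barcodes. Xist had log2 ratios of 1.08, 2.30 and 1.76. Lag3, a checkpoint receptor that binds MHC class II, was the only one of 7 inhibitory receptor genes past the fold (1.27, 1.63 and 2.01), on 11, 47 and 3 UMIs in the low-mitochondrial barcodes. Lower in members were D130009I18Rik, H1f2, Fabp5, Ccl3, Mif, Timm13, Atp5e, Cycs, Tmtc2 and Rpl35. Cycs, cytochrome c, stood at 36.9, 71.4 and 90.9 CPM in members and 166, 324 and 300 in low-mitochondrial barcodes. H1f2, a linker histone, stood at 7.38, 30.8 and 26.0 CPM against 117, 171 and 233, on only 1, 19 and 6 UMIs in members. Lars2 and Cmss1, whose counts in mouse libraries can hold reads of ribosomal RNA repeats and are uncertain, ordered the classes differently. Lars2 stood at 480, 218 and 502 CPM in members, 1860, 623 and 2086 in low-mitochondrial barcodes and 179, 116 and 115 in deep cells, so the members lay between the others.

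The comparison was repeated with low-mitochondrial barcodes of at least 1% Malat1, a limit chosen after seeing the data (116, 164 and 31 barcodes, with 2.19%, 2.65% and 2.00% mitochondrial UMIs). Of 2254 genes tested 15 were then higher and 37 lower. Rad51b, a DNA repair gene with a long span (2.31, 2.80 and 2.98), and Ikzf2 (2.17, 1.69 and 1.33) were still higher. In these barcodes Rad51b stood at 50.5, 56.0 and 35.8 CPM. That level rested on few UMIs, since all low-mitochondrial barcodes together held 7, 92 and 7 UMIs of Rad51b, so its ratios are imprecise. Lars2 (-1.98, -2.55 and -2.83) was still lower. Ribosomal protein genes had medians of -0.65, -0.70 and -0.74, so the members were lower than these barcodes too, by a smaller step. The members were not cut in this way. In low-mitochondrial barcodes rho between Malat1 and ribosomal protein share was -0.47, -0.37 and -0.51. The cut left them a median ribosomal protein share of 4.20%, 7.37% and 6.22%, so part of the smaller step is set by the cut. Immediate early genes had medians of -0.77, -0.96 and -0.85 and endoplasmic reticulum chaperones of 0.71, 0.63 and 0.52, each of one sign in all 3 libraries. Chromatin regulators (-0.10, -0.02 and -0.09) and respiratory chain genes (0.03, -0.05 and 0.27) lay near 0.

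The members varied in Malat1 share along the mitochondrial range, while their ribosomal protein share showed no common order. Most had 5% to 10% mitochondrial UMIs in the sIL-2 library (99 of 127), while 302 of 643 and 104 of 270 did in the other libraries. With 5% to 10%, 10% to 15% and 15% to 20% mitochondrial UMIs, the median Malat1 share was 1.94%, 1.49% and 1.19% in the IL-2/21-Trikine members and 1.84%, 1.78% and 1.39% in the sIL-2 + IL-21 members. In the sIL-2 members it was 2.41% and 1.62% in the lower 2 ranges, and the last range held only 2 barcodes. Spearman's rho between mitochondrial and Malat1 share over members was -0.24, -0.28 and -0.19, a weak relation in sparse counts over a range that the rule cut, given as a description only. The median ribosomal protein share over the same 3 ranges was 5.26%, 5.40% and 5.29% in the IL-2/21-Trikine library and 4.19%, 4.04% and 4.79% in the sIL-2 + IL-21 library, and in the lower 2 ranges of the sIL-2 library it was 3.29% and 3.68%. Just inside the 5% limit (5% to 6%) were 20, 46 and 26 members, and just outside it (4% to 5%) 20, 58 and 8 barcodes. The median Malat1 share was 2.76% inside and 3.46% outside in the sIL-2 library and 2.65% inside and 2.09% outside in the IL-2/21-Trikine library. In the sIL-2 + IL-21 library it was 2.09% inside and 2.53% outside, on 8 barcodes outside. Among low-mitochondrial barcodes, below the limit, rho between mitochondrial and Malat1 share was 0.29, 0.21 and 0.21.

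Treatments were compared within the members as levels of 1 library each, with no test, over genes at 500 CPM or more in either library, and the 3 comparisons share libraries. Between IL-2/21-Trikine and sIL-2, 8 of 372 genes (2.15%) were higher and 5 (1.34%) lower by a log2 ratio of at least 1. Ccr7 stood at 724 CPM in IL-2/21-Trikine members and 236 in sIL-2 members (1.62 [1.10, 2.18]), and its ratio in deep cells was 0.67. Top2a, a topoisomerase of dividing cells, had a ratio of 1.57 in members and 0.70 in deep cells, and Pola1, the catalytic subunit of DNA polymerase alpha, 1.48 and 0.79. Rps18 and Rpl37 were also among the 5 highest. On the lower side were Camk1d (-1.30), Pim1 (-1.16), Ccl4 (-1.13), Gzma and Itgav (-1.01). Gzma, the granule protease granzyme A, stood at 310 CPM against 650 (-1.07 [-1.44, -0.69]), with a ratio of -1.84 in deep cells. The named ratios thus had the same sign in deep cells as in members.

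When IL-2/21-Trikine members were set against sIL-2 + IL-21 members, 1 of 339 genes (0.295%) was higher and 3 (0.885%) were lower. Gimap6, a lymphocyte GTPase, was higher (1.38), and Gzma (-1.89), the chemokine Ccl4 (-1.59) and Lars2 (-1.21) were lower. For Ccl4 the ratio in deep cells had the other sign (0.24). The ratio of Lars2, whose counts are uncertain as said above, was 0.02 [-0.01, 0.05] in deep cells. Between sIL-2 + IL-21 and sIL-2 members, 6 of 369 genes (1.63%) were higher and 2 (0.542%) lower. Tnfsf11, the cytokine RANKL, was higher (1.70), as were Gzmc (1.22) and Ccr7 (1.09), whose ratio in deep cells was -0.28. Tnfsf8, the CD30 ligand, was lower (-1.14), as was the costimulatory receptor Cd28 (-1.11). Ribosomal protein genes that reached 500 CPM in both members and deep cells had a median ratio of 0.57 between IL-2/21-Trikine and sIL-2 members, 0.14 between IL-2/21-Trikine and the sIL-2 + IL-21 members, and 0.44 between sIL-2 + IL-21 and sIL-2 members. All genes that reached it had medians of 0.32, 0.10 and 0.27 in members, and the ribosomal protein genes had 0.20, 0.11 and 0.09 in deep cells. These levels rest on 135435, 615985 and 230971 non-mitochondrial UMIs in all members, and the sIL-2 members gave the least precise levels.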

How the data were processed

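Droplet 3' gene expression libraries of sorted CD8+ T cells were deposited as 1 matrix of raw UMI counts per library, with 33696 genes. The authors made the counts with Cell Ranger 9.0.0, according to the file header. The submitters' processing notes name mm10 and the methods name GRCm39 with introns counted, so no coordinates are given. The study's filter of 500 to 120000 UMIs and at most 20% mitochondrial UMIs was in force only at its lower limit, and applied in full it leaves 7760, 13299 and 9798 barcodes, every member among them. The last of these differs slightly from the count in the methods.

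Counts were summed per class within each library and scaled to 1000000 non-mitochondrial UMIs (CPM) (Python 3.11.15, numpy 2.4.6, scipy 1.17.1, pandas 2.3.3). Genes needed 100 CPM in either class in each library, or 500 for treatments. Ratio intervals are exact conditional binomial 95% intervals. Named genes were the 13 mitochondrial genes, tested members of the lists, the 10 widest ratios per direction past a log2 ratio of 1 in all 3 libraries, and the 5 widest per direction between treatments. Gene spans came from GENCODE annotation of GRCm38 and served for ranks. With 1 library per treatment no test was run, and p-values are not given. No cell was clustered and no doublet caller was run. Members and gene lists were chosen with earlier results of these data known. The steps were tested on simulated data. Alternatives changed the denominator, floor, fold, UMI and mitochondrial limits, thinning and libraries.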

Additional observations from a re-analysis of the deposited data

Results flagged for a closer look

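Between members and low-mitochondrial barcodes of the same UMI range, several genes had log2 ratios of opposite sign in different libraries, with counting intervals on opposite sides of 0. The differences between libraries were not tested, and with 1 library per treatment they cannot be told apart from the treatment. The cytotoxic list had a median of 0.60 in the sIL-2 library and -0.87 in the IL-2/21-Trikine library. Against low-mitochondrial barcodes with 1% or more Malat1 its medians were 0.77, 0.27 and 0.27, of one sign in all 3 libraries. Gzma had ratios of 0.60, -1.68 and -1.10, with sIL-2 first, IL-2/21-Trikine second and sIL-2 + IL-21 last, Gzmb 0.85, -1.22 and -0.62, and Gzmf 1.17, -2.42 and -1.36. Gzmc had 1.04 (sIL-2) and -0.63 (IL-2/21-Trikine), and Serpinb6b, an inhibitor of proteases, 0.92 and -0.87. Dut, an enzyme that clears dUTP, had 1.85 (sIL-2) and -1.38 (IL-2/21-Trikine), and Tbx21, the effector regulator T-bet, -1.06 and 1.06.

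Barcodes under 2000 UMIs with over 20% mitochondrial UMIs lie outside every comparison of the report. They were 10.7%, 2.31% and 15.7% of the barcodes under 2000 UMIs.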

How the results depend on the processing

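No paired analysis between treatments was possible because each treatment was 1 library. The classes were compared within libraries with no test, since the rule used that contrast. The sign of the median over libraries against deep cells held under the alternatives tried for Malat1, Xist and 6 lists (ribosomal protein, chromatin, respiratory chain, cytotoxic, stem and memory and T cell identity genes), while under the rescaling the inhibitory receptor and BCL2 lists turned negative and the splicing list did in 1 library. Against deep cells, rescaling to the median of ratios left 149 genes higher and 798 lower, with Malat1 at 1.59, ribosomal proteins at -3.56 and chromatin regulators at 0.43 (medians of 3 libraries). Against low-mitochondrial barcodes the rescaling left 7 higher and 172 lower, with ribosomal proteins at -2.04 and chromatin regulators at 0.0878. All UMIs as the denominator left 30 higher. A fold of log2 0.5 gave 357 higher and 254 lower of 2243 genes tested. A floor of 30 CPM gave 146 and 202 of 5281 (2.76% and 3.83%), and no floor beyond 1 UMI 171 and 236 of 7445 (2.30% and 3.17%). Against deep cells the floor of 30 CPM gave 2118 higher and 766 lower of 5361 genes tested (39.5% and 14.3%). No floor beyond 1 UMI gave 3220 and 777 of 9024 (35.7% and 8.61%). With members of 10% or more mitochondrial UMIs, 104 were higher than in low-mitochondrial barcodes, and against deep cells Malat1 was at 2.23 and ribosomal proteins at -2.56. Malat1 was at 2.28 with each barcode weighed equally. Leaving out 1 library at a time gave 91 to 425 higher and 128 to 333 lower against low-mitochondrial barcodes, and the T cell identity median ranged from -0.223 to 0.0205, turning positive without the sIL-2 + IL-21 library. Against low-mitochondrial barcodes of 1% or more Malat1, a limit chosen after seeing the data, 15 were higher and 37 lower and ribosomal proteins were at -0.70. That comparison reversed Malat1 (-0.42), chromatin regulators (-0.0939), respiratory chain genes (0.0342), cytotoxic genes (0.27) and T cell identity (0.0528). By construction it fixes Malat1, and the cut also lowered the ribosomal protein share of the barcodes compared.

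The share of members followed the limits. In the sIL-2 library it was 0.359% with a 10% mitochondrial limit, 1.01% from 1000 UMIs, 2.02% up to 3000 UMIs and 2.42% with the 95th percentile of deep cells as the limit. In the IL-2/21-Trikine library these were 2.55%, 2.40%, 5.32% and 5.86%, and in the sIL-2 + IL-21 library they were 1.68%, 1.04%, 3.12% and 2.95%. The excess of detected genes over deep cells (36, 53 and 50 at 400 UMIs) was 91, 129 and 121 at 800 UMIs, which left out 36, 251 and 146 members too shallow for it, and without thinning it turned to -2643, -2436 and -3014.5, where depth differs. A floor of 100 CPM raised the genes past the fold between treatments from 13, 4 and 8 to 195, 77 and 242, many on few UMIs. The cause of these movements was not tested otherwise.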
